A study of Mus musculus with 62 samples.

Results

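Soleus muscle of mice that carried a cachexia-inducing melanoma for 2 weeks (group CAC, 5 libraries) was compared with that of mock-injected mice of the same time point (group Con, 5 libraries). The 10 libraries were chosen by the group and week in their titles, out of 62 libraries in 12 groups. CAC animals had received cachectic melanoma cells and Con animals a mock injection. All were female and 2 months old by the labels, and no genetic alteration is named for any group. The sample entries give the strain as C57BL6/J and the design text as NCI Ath/nude, an athymic line that lacks T cells, so the strain cannot be given here. A protocol sentence also names LLC cells, which no group label does. A further group of the same week, NCAC, had received melanoma cells that do not cause cachexia (5 libraries), and CAC and Con were also sampled 4, 6 and 8 weeks after injection.

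Cachexia is the loss of muscle and fat that accompanies some tumours, and the soleus is a postural hindlimb muscle built mostly of slow oxidative fibres. Cytokines of the interleukin-6 family bind receptors that share the gp130 subunit, activate Janus kinases and, through them, the transcription factor STAT3, which turns on its own inhibitor SOCS3 and, in liver, the acute phase proteins of plasma. The same pathway is known to act in muscle during wasting, beside the FoxO factors and ubiquitin ligases that drive protein breakdown.

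Expression was given as TPM, a length-scaled share of each library that keeps no read depth, so the depth behind a value is unknown. Myh7, the slow myosin that marks soleus fibres, lay between 4956 and 6558 TPM in all 10 libraries. Libraries of a group are called biological replicates by the labels. The p-values of limma rest on the spread between them, pooled over all 12 groups. Libraries also differed within groups. Tendon genes such as Tnmd were low in CAC replicates 2 and 4 and in Con replicate 4 (2.65 to 12.2 TPM, against 42.1 to 106 in the other 7). The fast myosin Myh4 reached 1013 TPM in CAC replicate 4 and at most 32.9 TPM in the other 9, and CAC replicate 3 held the highest values of several acute phase genes. Melanocyte and melanoma markers summed to 11.8 to 16.7 TPM in CAC and 11.9 to 14.9 TPM in Con, and the 7 of 12 below the filter, Tyr, Mlana and Pmel among them, lay at or under 0.22 TPM. In bulk tissue, fewer cells of a type and less RNA per cell cannot be told apart.

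At 2 weeks 1 gene passed the test, Stat3, the transcription factor at the centre of interleukin-6 signalling. It rose in CAC, to 26.9, 26.8, 44.7, 39.3 and 29.8 TPM in replicates 1 to 5, against 19.4, 20.1, 20.5, 17.6 and 19.96 TPM in Con. Each CAC library lay above each Con library, and replicates 3 and 4 were the highest. The means were 33.5 ± 8.07 TPM (SD, n = 5) and 19.5 ± 1.13 TPM (SD, n = 5), a difference of 71.6%. On the log2(TPM + 1) scale, which understates the change of low genes, the difference was 0.72 with an SE of 0.13 and an adjusted p of 0.0175 (limma, over 13529 genes). An exact two-sided permutation test of the 10 libraries gave p = 0.00794, the smallest that its 252 splits allow. Any gene whose groups do not overlap gives this value, so it adds nothing to the non-overlap of a gene ranked first in these libraries. The adjusted p depended on which libraries and genes stood beside it: it was past 0.05 in 4 of 10 fits that left out 1 library and not in 6. It was 0.42 without CAC replicate 3, 0.238 without CAC replicate 4, 0.142 without Con replicate 4, 0.0697 without Con replicate 1, 0.0542 without Con replicate 5 and 0.0504 without Con replicate 2. The difference itself stayed between 0.61 and 0.79 in those 10 fits. With the 10 libraries fitted alone the adjusted p was 0.33, and with the 15 libraries of week 2 alone 0.162. Stat3 lies at chr11:100885098-100939540 on the minus strand (mm10).

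The share of genes called in the comparison was 0.00739% higher (1 of 13529) and 0% lower. At an unadjusted p under 0.05 there were 408 genes higher (3.02%) and 27 lower (0.2%). For 271 genes (2%) each CAC library lay above each Con library, and for 19 (0.14%) each lay below. The median of all genes was 0.06, and 74.5% of genes had a difference above 0 and 25.5% below. After median-of-ratios rescaling, which by its construction centres the libraries on their median gene, 48.2% lay above and 51.8% below 0, and the unadjusted counts were 129 higher (0.954%) and 103 lower (0.761%). Genes without overlap were then 62 higher (0.458%), 58 of them among the 271, and 79 lower (0.584%), 17 of them among the 19. Stat3 passed on that scale too, with a difference of 0.64 and a limma adjusted p of 0.00578. The mitochondrially encoded share of all TPM was 35.6 ± 1.40% in CAC and 37.9 ± 1.11% in Con (SD, n = 5, exact permutation p = 0.0317). Their part in the shift of the other genes was not tested.

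Stat3 was also higher in the CAC libraries of each later week, and passed at all 3. The CAC means were 52.2 ± 15.8 TPM after 4 weeks (SD, n = 5), 57.8 ± 6.31 TPM after 6 (SD, n = 5) and 57.0 ± 9.65 TPM after 8 (SD, n = 7), while Con lay at 20.9 ± 0.92, 20.9 ± 1.81 and 25.6 ± 2.17 TPM (SD, n = 5 each). The differences on the log2 scale were 1.23 with an SE of 0.13 at 4 weeks, 1.42 at 6 weeks and 1.11 at 8 weeks. The 2-week level of CAC lay between Con and the later CAC levels. Its highest library, 44.7 TPM, exceeded the lowest of 4 weeks, 35.8 TPM, so these neighbouring groups overlapped. The gain from 2 to 4 weeks, 0.51 with an SE of 0.19, had a limma adjusted p of 1. In NCAC, Stat3 was between 18.3 and 21.6 TPM at 2 weeks, with a mean of 20.4 ± 1.23 TPM (SD, n = 5), and its means at later weeks were 20.9 to 21.7 TPM.

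**Figure D1:**
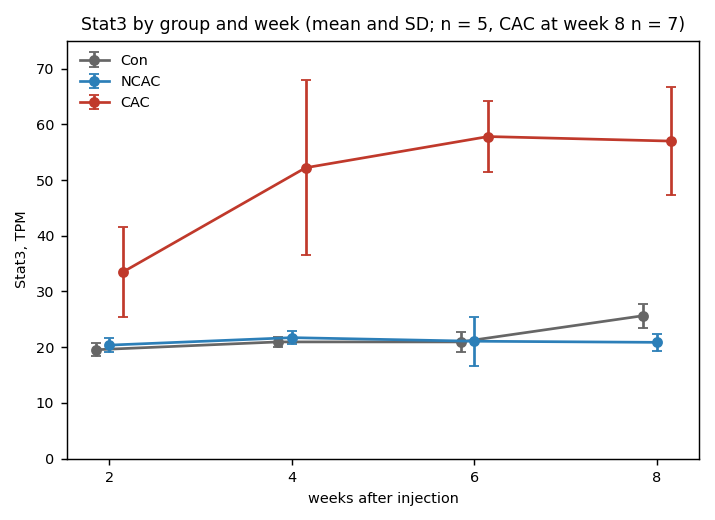
Stat3 in TPM (vertical axis, from 0) against weeks after injection (horizontal axis) for the 12 groups. Points are group means and bars are the SD over 5 libraries, or 7 for CAC at 8 weeks. CAC was at 33.5 TPM at 2 weeks and at 52.2 TPM or more later, while the means of Con and NCAC stayed between 19.5 and 25.6 TPM.

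The other members of the interleukin-6 and STAT3 list did not pass the test, and most lay above 0. Of its 33 members 29 were tested, 1 passed, and 26 lay above 0, as did 74.5% of all genes. The median was 0.17, against 0.06 over all genes, and 0.11 against -0.00 after rescaling. At an unadjusted p under 0.05 there were 7 of 29 higher and 0 lower, beside the 3.02% and 0.2% of all genes. The list median per library, relative to the Con mean, was between 0.18 and 0.24 in each of the 5 CAC libraries and between -0.14 and 0.09 in Con. The median was 0.18 without the 3 libraries low in tendon genes.

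Among the ligands, Il6, Lif, Osm and Il11 were below the filter, at no more than 0.49 TPM in any of the 10 libraries. Osmr, the receptor subunit for oncostatin M, was at 3.20, 4.77, 5.53, 4.33 and 3.12 TPM in CAC and 1.83, 2.61, 2.48, 2.53 and 2.48 TPM in Con. The groups did not overlap, and the difference of 0.60 with an SE of 0.19 had an adjusted p of 1 (limma). The shared subunit gp130, encoded by Il6st, was at 42.1 to 62.5 TPM in CAC and 44.5 to 56.0 TPM in Con, groups that overlapped, with a difference of 0.16. It had the highest TPM, a level per transcript length, of the 5 receptors of the family that were tested. Il1r1, the receptor of interleukin-1 and a list member chosen for mention after its values were seen, differed by 0.51 with an SE of 0.21.

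The Janus kinases differed in both directions and none passed. Jak3, which pairs with the common gamma chain of lymphokine receptors and was not in the list, was at 11.9, 18.6, 12.2, 9.62 and 7.67 TPM in CAC and 4.91, 6.46, 6.73, 6.62 and 6.25 TPM in Con. Each CAC library was above each Con library, with replicate 2 the highest, and the difference was 0.81 with an SE of 0.21 (limma adjusted p = 0.445). Its exons share up to 404 bases with those of Insl3 on the same strand, so reads there could be split between both genes. The 3 kinases of the list, Jak1, Jak2 and Tyk2, differed by -0.19 to 0.19. Jak2, a kinase that gp130 can use, differed by 0.19 with an SE of 0.14, and the groups overlapped. Tyk2, also a gp130 kinase and named after its values were seen, lay lower in every CAC library, at 5.23 to 5.99 TPM against 6.11 to 6.92 TPM. That difference was -0.19 with an SE of 0.13, smaller than 2 of its own standard errors.

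Known targets of STAT3 included genes that separated the groups. Sbno2, a transcriptional coregulator induced by STAT3, was at 10.1, 9.55, 14.9, 17.3 and 12.2 TPM in CAC and 7.41, 8.36, 9.05, 6.69 and 7.67 TPM in Con. Bcl3, an inhibitor-of-NF-kB family protein that acts in the nucleus, was at 1.82, 2.75, 3.71, 2.44 and 2.05 TPM in CAC and 1.12, 1.76, 1.39, 0.987 and 1.195 TPM in Con. Both separated the groups completely, with differences of 0.62 (SE 0.17, limma adjusted p = 0.637) and 0.62 (SE 0.21, limma adjusted p = 1). Socs3, the feedback inhibitor, was at 2.56, 7.01, 7.72, 27.6 and 3.36 TPM in CAC and 4.28, 3.95, 3.03, 1.84 and 2.45 TPM in Con. Its groups overlapped and replicate 4 stood far above the rest: the difference was 0.98 with all libraries and 0.23 without the 3 libraries low in tendon genes, CAC replicate 4 among them. Bcl6, a transcriptional repressor named after its values were seen, was at 15.1 to 43.3 TPM in CAC and 9.32 to 24.4 TPM in Con, with a difference of 0.77 and an SE of 0.26.

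Promoters of this list were searched for the palindrome TTCNNNGAA, a spaced inverted repeat that STAT dimers are known to bind and that reads the same on both strands. The windows ran from 250 bases before to 50 bases after each gene's start (RefSeq, GRCm38.p6). Some genes have several windows, and 8.3% of all 32851 windows held the letters. Counted per gene, 9.55% of 27025 genes did, as did 4 of 28 genes of the list with a window (14.3%), Socs3, Sbno2, Bcl6 and Cish, and 7 of 20 acute phase genes (35%). The 1 Stat3 window and the 1 Osmr window did not hold the letters. The 7 acute phase genes were Apcs, Fga, Fgb, Itih4, Serpina3g, Serpina3i and Steap4. Serpina3n, Lrg1 and Cp, described below, had windows without the letters, and Hp and C4b had no window. A match is a description of these letters, not of a bound site. The matches below are those of the 3 list members described above and of Steap4, a metalloreductase in the acute phase list (17.8 to 42.6 TPM in CAC, 19.4 to 26.7 TPM in Con, difference 0.34 with an SE of 0.31). Of the 3 matches at the downstream Bcl6 start the one farthest from it is shown. Capitals mark the match and lower case the flanks before the gene's start, 5′ to 3′ on the gene's strand.
Socs3, chr11:117969482-117969550, minus strand: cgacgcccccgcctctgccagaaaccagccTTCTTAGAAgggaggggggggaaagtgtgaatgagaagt
Sbno2, upstream start, chr10:80102703-80102758, minus strand: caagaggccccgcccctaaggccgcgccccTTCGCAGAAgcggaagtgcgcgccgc
Sbno2, downstream start, chr10:80101188-80101241, minus strand: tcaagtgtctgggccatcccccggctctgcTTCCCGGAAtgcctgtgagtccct
Bcl6, upstream start, chr16:23988932-23989000, minus strand: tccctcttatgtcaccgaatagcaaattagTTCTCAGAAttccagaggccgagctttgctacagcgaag
Bcl6, downstream start, chr16:23981413-23981481, minus strand: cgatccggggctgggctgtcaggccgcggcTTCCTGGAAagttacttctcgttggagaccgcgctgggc
Steap4, chr5:7960326-7960394, plus strand: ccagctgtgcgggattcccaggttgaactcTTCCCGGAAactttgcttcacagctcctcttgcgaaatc

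**Figure D2:**
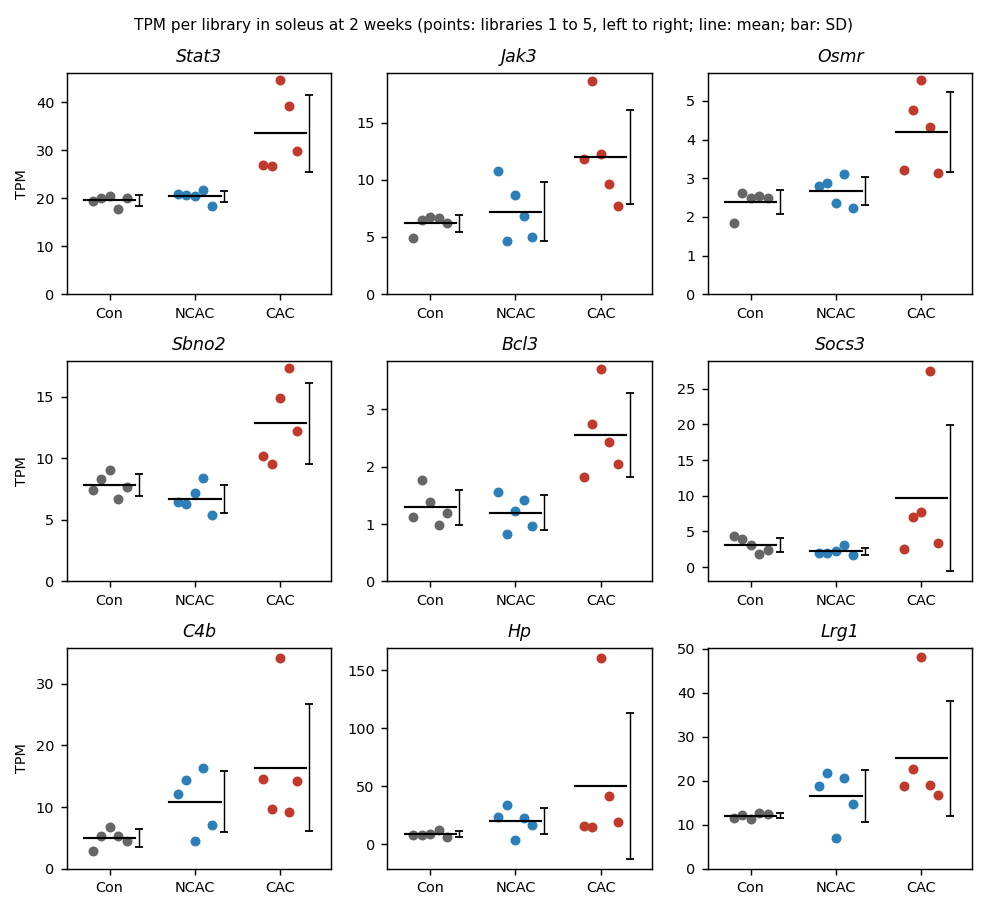
TPM (vertical axes, linear) of 9 genes in the 5 libraries each of Con, NCAC and CAC at 2 weeks. Points are libraries in the order of their replicate number, lines are means and bars are SDs. Stat3, Jak3, Osmr, Sbno2, Bcl3, C4b, Hp and Lrg1 show CAC above Con without overlap, Socs3 overlaps, and replicate 3 is the highest CAC point for Stat3, Osmr, Bcl3, C4b, Hp and Lrg1.

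Acute phase genes held some of the largest differences of the comparison, and CAC replicate 3 was the highest library in 4 of them. Of 28 members 22 were tested, 0 passed, 4 were higher at an unadjusted p under 0.05 and 0 lower (3.02% and 0.2% of all genes), and in 4 CAC lay higher without overlap (2% of all genes). The median was 0.18, against 0.06 over all genes. Hp, the haemoglobin scavenger haptoglobin, was at 15.3, 14.6, 161, 41.0 and 18.7 TPM in CAC and 8.18, 7.82, 9.02, 12.5 and 5.66 TPM in Con. C4b, complement component 4, was at 14.5, 9.63, 34.2, 9.20 and 14.2 TPM in CAC and 2.83, 5.24, 6.79, 5.39 and 4.58 TPM in Con. For both genes each CAC library was above each Con library, and CAC replicate 3 was the highest. The differences were 1.77 (SE 0.69, limma adjusted p = 1) and 1.42 (SE 0.40, limma adjusted p = 0.803).

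Serpina3n, a serine protease inhibitor, was at 8.09, 6.66, 33.4, 13.9 and 8.29 TPM in CAC and 5.59, 4.08, 4.59, 5.396 and 4.92 TPM in Con. Lrg1, a leucine-rich glycoprotein of plasma, was at 18.9, 22.8, 48.1, 18.9 and 16.8 TPM in CAC and 11.6, 12.1, 11.2, 12.7 and 12.4 TPM in Con. Neither pair of groups overlapped, and the differences were 1.11 with an SE of 0.58 and 0.89 with an SE of 0.39. Cp, the copper carrier ceruloplasmin, differed by 0.46 with an SE of 0.18, with overlap. Serpina3n and C4b belong to families of near-identical gene copies, so reads could be split among them. The list median was 0.60 in CAC replicate 3 and between -0.01 and 0.11 in the other CAC libraries. The 6 members below the filter, the fibrinogen chains among them, did not exceed 0.33 TPM.

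Among inflammatory receptors the differences were small and none passed. In the NF-kB and TNF receptor list 22 of 22 members were tested, 0 passed, 2 were higher at an unadjusted p under 0.05 and 0 lower (3.02% and 0.2% of all genes), and the median was 0.10 against 0.06 over all genes. These 2 were receptors whose groups did not overlap (2% of all genes), and after rescaling 1 list member lay higher without overlap (0.458%). Tnfrsf1a, the main receptor of TNF, was at 37.5, 36.7, 52.1, 44.7 and 40.9 TPM in CAC and 30.4, 33.7, 34.5, 30.5 and 30.7 TPM in Con, a difference of 0.39 with an SE of 0.14. Ltbr, the lymphotoxin receptor, was at 27.5 to 34.3 TPM in CAC and 23.1 to 26.9 TPM in Con, a difference of 0.27 with an SE of 0.12. Tnfrsf1b, the second TNF receptor, and Nfkbib, an inhibitor of NF-kB, overlapped between groups, with differences of 0.36 and 0.17.

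Of 28 AP-1 and immediate early genes 27 were tested and 0 passed, with a median of 0.07. At an unadjusted p under 0.05 there was 1 higher and 0 lower, beside 3.02% and 0.2% of all genes. After rescaling there were 0 higher and 1 lower, beside 0.954% and 0.761%, and 2 lay lower without overlap, beside 0.584%. Junb, an AP-1 subunit, was at 9.76, 14.5, 17.5, 45.8 and 14.9 TPM in CAC and 12.7, 10.6, 11.2, 10.1 and 9.78 TPM in Con. Replicate 4, also the highest for Socs3, stood apart, and the difference of 0.66 was 0.29 without the 3 libraries low in tendon genes. Jund, Egr3 and Zfp36 differed by -0.28, -0.35 and 0.34, all with overlap.

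The 15 higher genes with the smallest unadjusted p, among those with a group mean of at least 5 TPM, were not all of inflammation. They were Stat3, Pfkfb4, Atp9a, Flot1, Ccbl2, Rpap3, Jak3, Naprt, Sbno2, Rasa4, Fen1, C4b, Tmem176b, Shisa5 and Pkig, with differences of 0.28 to 1.42, and in 11 of the 15 the groups did not overlap. The ranking chose them in this same contrast, so that count is a description. Pfkfb4, an enzyme that sets fructose 2,6-bisphosphate and with it glycolytic flux, was at 12.8, 15.3, 14.3, 19.7 and 13.9 TPM in CAC and 9.12, 9.97, 10.1, 7.50 and 7.39 TPM in Con. Its difference was 0.72 with an SE of 0.16 (limma adjusted p = 0.19). Pfkfb1, the isoform typical of liver and muscle, went the other way without overlap, at 7.30, 8.01, 4.64, 7.07 and 8.11 TPM in CAC and 9.61, 9.39, 8.65, 8.16 and 13.3 TPM in Con, a difference of -0.43 with an SE of 0.23.

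Atp9a, a lipid-flipping ATPase of endosomes, was at 34.03, 45.4, 62.7, 57.8 and 38.4 TPM in CAC and 25.9, 30.7, 30.6, 27.7 and 25.9 TPM in Con, without overlap. Rpap3, a co-chaperone of HSP90, was at 17.8, 18.5, 16.5, 18.4 and 16.9 TPM in CAC and 11.0, 14.9, 10.6, 10.8 and 12.005 TPM in Con. Neither gene overlapped between groups, and for Atp9a, as for Stat3, replicates 3 and 4 were the highest. Differences were 0.70 with an SE of 0.16 for Atp9a and 0.54 with an SE of 0.14 for Rpap3. Flot1, a scaffold of membrane microdomains, was at 78.9, 101, 92.4, 91.7 and 57.0 TPM in CAC and 53.6 to 63.1 TPM in Con. CAC replicate 5 alone fell inside the Con range, and without it Flot1 passed, with a difference of 0.67 and a limma adjusted p of 0.0153.

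Tmem176b, a membrane protein of antigen-presenting cells, was at 12.8 to 25.4 TPM in CAC and 7.90 to 11.8 TPM in Con, a difference of 0.85 with an SE of 0.25. Shisa5, a membrane protein of the endoplasmic reticulum, was at 16.1 to 23.3 TPM in CAC and 11.0 to 14.2 TPM in Con, and Ccbl2, a kynurenine aminotransferase, at 9.42 to 12.1 TPM and 7.31 to 8.46 TPM. None of the 3 overlapped between groups. Naprt, which makes NAD from nicotinic acid, Rasa4, which switches off Ras, and Pkig, an inhibitor of protein kinase A, differed by 0.43, 0.40 and 0.32 and overlapped. Naprt shares up to 277 exonic bases with Eef1d on the same strand. Fen1, a flap endonuclease of DNA replication, differed by 0.28 with an SE of 0.08, without overlap.

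In the libraries of later weeks the 15 kept their direction: each lay above 0 at 4, 6 and 8 weeks, as did 65.4%, 74.6% and 50.6% of all genes. At 4 weeks 10 of 15 passed (0.584% of all genes did), at 6 weeks 14 (21.7%) and at 8 weeks 12 (16.2%). All weeks share the estimate of each gene's spread, so these counts are not fully independent of the ranking. Rpap3 was the gene past no threshold at 6 weeks. For Pfkfb4 and Rpap3 the 2-week difference was the larger one when set beside 4 weeks, 0.72 against 0.44 and 0.54 against 0.41. Fen1, Ccbl2 and Pkig also were smaller at 4 weeks, at 0.10, 0.24 and 0.25, and the differences between the weeks had a limma adjusted p of 1 for each of these 5 genes.

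**Figure D3:**
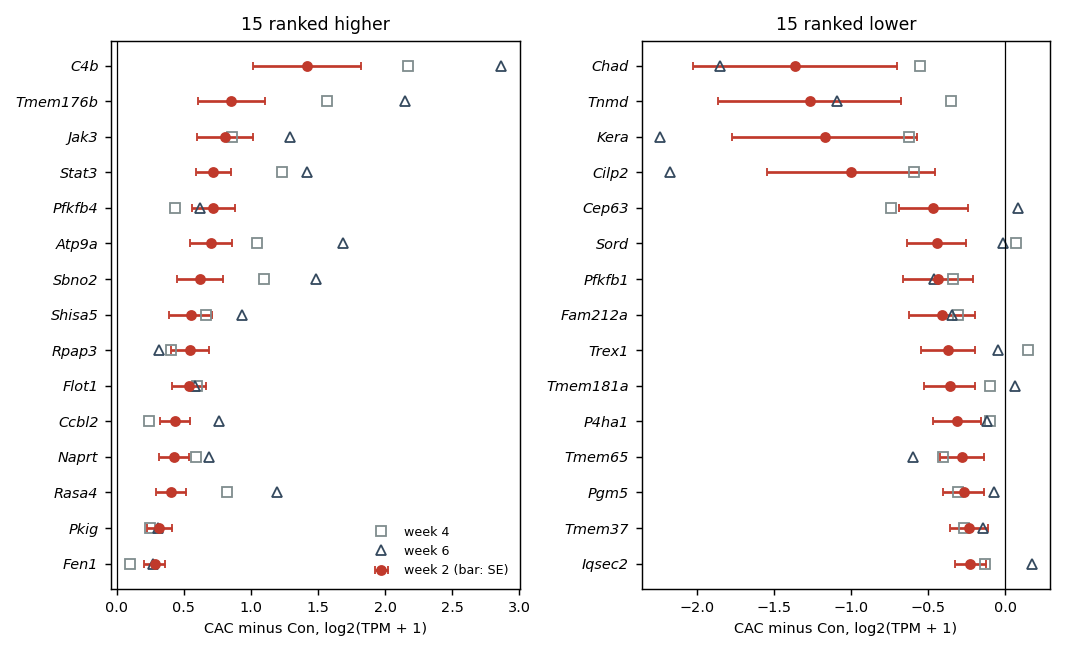
Difference of CAC from Con on the log2(TPM + 1) scale (horizontal axes) for the 15 genes ranked highest and the 15 ranked lowest by unadjusted p at 2 weeks. Filled points with SE bars are week 2, open squares week 4 and open triangles week 6. All 15 of the left panel stayed above 0, and the right panel is led by Chad, Tnmd, Kera and Cilp2, which have the widest bars.

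The 15 lower genes with the smallest unadjusted p, again among those with a group mean of at least 5 TPM, included tendon genes. They were Sord, Iqsec2, Tmem181a, Tnmd, Trex1, Cep63, Chad, Pgm5, P4ha1, Kera, Tmem65, Tmem37, Pfkfb1, Fam212a and Cilp2, with differences of -1.36 to -0.23 and unadjusted p of 0.0245 to 0.0709. The groups overlapped in 14 of them, all but Pfkfb1. At 4 weeks 13 lay below 0 (34.6% of all genes did) and 0 passed (0.037%). At 6 weeks 12 lay below 0 (25.4%) and 4 passed (2.42%), and at 8 weeks 12 (49.4%) and 6 (14.9%). Sord, which oxidises sorbitol to fructose, was at 47.6, 78.0, 47.2, 76.4 and 38.1 TPM in CAC and 86.7, 81.2, 85.7, 82.6 and 49.0 TPM in Con, with Con replicate 5 inside the CAC range. Its difference was -0.44 with an SE of 0.19 at 2 weeks and 0.07 at 4 weeks.

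Tnmd, the tendon membrane protein tenomodulin, was at 84.9, 3.797, 55.3, 2.65 and 57.7 TPM in CAC and 42.1, 67.1, 106, 12.2 and 96.5 TPM in Con. Chad, a cartilage and tendon matrix protein, was at 48.1, 0.786, 50.9, 3.56 and 73.8 TPM in CAC and 41.2, 46.6, 82.3, 13.4 and 71.8 TPM in Con. The low values came from CAC replicates 2 and 4 and Con replicate 4 in both genes, and the other libraries of the groups overlapped. Differences were -1.27 for Tnmd and -1.36 for Chad, and -0.18 and -0.04 without those 3 libraries. The tenocyte list had 15 of 15 members tested, 0 passed, 2 were lower at an unadjusted p under 0.05 and 0 higher, beside 0.2% and 3.02% of all genes. After rescaling 7 were lower, beside 0.761%. The list median was -0.73, or -0.13 without the 3 libraries. Per library it was -2.37 and -2.44 in CAC replicates 2 and 4, -1.63 in Con replicate 4 and -0.28 to 0.71 in the other 7. Connective-tissue collagens had a median of -0.06, or 0.26 without them, with 15 tested and 0 past the threshold.

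Trex1, a DNA exonuclease, has a neighbour that differed in the opposite direction. It was at 10.2, 13.6, 9.17, 8.98 and 5.68 TPM in CAC and 10.2, 14.6, 12.8, 10.8 and 13.0 TPM in Con. Atrip, a partner of the DNA damage kinase ATR that was named after its values were seen, was at 3.10, 3.25, 3.23, 5.69 and 3.56 TPM in CAC and 1.57, 2.00, 0.731, 1.65 and 1.60 TPM in Con. Trex1 overlapped with a difference of -0.37, while Atrip did not, with a difference of 0.92 and an SE of 0.23. Both genes share up to 996 exonic bases on the same strand, and Shisa5 ends next to them at chr9:109038565-109057777. The division of reads between Atrip and Trex1 is therefore uncertain.

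Genes of the tricarboxylic acid cycle and transcripts of the mitochondrial genome mostly lay below 0, and none passed. Of 18 genes of the tricarboxylic acid cycle 0 passed and 0 had an unadjusted p under 0.05. Below 0 lay 17, as did 25.5% of all genes, and the median was -0.09 against 0.06 over all genes. The members with the smallest p were Idh3a, Suclg1, Sdha and Sdhb, subunits of the cycle's dehydrogenases and of succinate-CoA ligase, with differences of -0.19 to -0.13 and overlapping groups. Idh3a was at 233 to 267 TPM in CAC and 261 to 303 TPM in Con. Of 13 transcripts of the mitochondrial genome 0 passed, 12 lay below 0 (25.5% of all genes did), and 3 lay lower without overlap (0.14% of all genes), with a median of -0.10. These were mt-Cytb, a subunit of complex III, and mt-Co2 and mt-Co3, subunits of complex IV. mt-Cytb was at 29032, 28414, 28994, 28565 and 30254 TPM in CAC and 31013, 31626, 31758, 30881 and 31616 TPM in Con.

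Some other genes of oxidative metabolism, all nuclear, stood among the 19 genes that were lower in every CAC library. Of these 19, 2 were predicted genes. Mb, the oxygen store myoglobin, was at 10329 to 12693 TPM in CAC and 13108 to 15472 TPM in Con. Got1 and Mdh1, enzymes of the malate-aspartate shuttle, were at 241 to 287 TPM against 289 to 352 TPM, and at 1105 to 1218 TPM against 1224 to 1340 TPM. Oxct1, which burns ketone bodies, was at 329 to 383 TPM against 404 to 472 TPM. Sod2, the mitochondrial superoxide dismutase, and Atp5a1, a subunit of ATP synthase, differed by -0.18 and -0.09. The genes of this paragraph were chosen after their values were seen, for lying lower without overlap, and none passed the test. Cd59b, a complement inhibitor, had the smallest p of the 19, at 0.273 to 0.79 TPM in CAC and 0.80 to 3.68 TPM in Con, a difference of -1.08 with an SE of 0.27.

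In the fasting and PPAR list, the fuel genes of the fasted state, 21 of 21 were tested and 0 passed. Above 0 lay 18 of the 21, beside 74.5% of all genes, and the median was 0.14 against 0.06. At an unadjusted p under 0.05 there were 6 higher and 0 lower (3.02% and 0.2% of all genes), or 2 and 0 after rescaling (0.954% and 0.761%). Angptl4, an inhibitor of lipoprotein lipase, was at 17.4, 7.71, 5.77, 23.8 and 14.6 TPM in CAC and 2.12, 1.84, 7.91, 4.33 and 11.2 TPM in Con. Ucp3, a mitochondrial carrier of muscle, was at 58.4, 41.6, 23.2, 83.6 and 48.7 TPM in CAC and 8.31, 22.0, 29.5, 25.9 and 46.004 TPM in Con. Pdk4, which blocks the entry of pyruvate into mitochondria, was at 1316, 379, 395, 1150 and 867 TPM in CAC and 101, 632, 522, 406 and 660 TPM in Con. Con replicate 1 was the lowest of the 10 libraries for Ucp3 and Pdk4, and all 3 genes overlapped between groups.

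Differences were 1.27 with an SE of 0.49 for Angptl4, 0.99 with an SE of 0.40 for Ucp3 and 0.89 with an SE of 0.42 for Pdk4. Without Con replicate 1 they were 0.65 for Ucp3 and 0.41 for Pdk4. Acot2, Cpt1a and Plin2, which act on fatty acids in mitochondria and lipid droplets, differed by 0.59, 0.47 and 0.36, with overlap, and by 0.36, 0.25 and 0.23 without Con replicate 1. Lpl, the lipase that frees fatty acids from lipoproteins, and Ppargc1a, a coactivator of oxidative genes, did not overlap, and differed by 0.23 and 0.63. Pdk4, Cpt1a, Lpl and Ppargc1a were named after their values were seen. Per library the list median was -0.25 in Con replicate 1, 0.27 in Con replicate 5 and between 0.06 and 0.24 in CAC. Angptl4 differed by 0.30 at 4 weeks and 0.04 at 6 weeks, and Ucp3 by -0.19 and -0.70. The limma adjusted p of the 4-week minus 2-week difference was 1 for both.

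Genes of protein breakdown did not separate the groups at 2 weeks. Of 19 ubiquitin ligases and FoxO factors 0 passed, with a median of 0.12 (0.05 after rescaling). At an unadjusted p under 0.05 there was 1 higher and 0 lower, beside 3.02% and 0.2% of all genes. Fbxo32 (atrogin-1), a ligase that marks muscle protein for degradation, was at 160, 123, 138, 177 and 153 TPM in CAC and 135, 157, 133, 107 and 105 TPM in Con. Trim63 (MuRF1), the ligase of the thick filament, was at 143, 108, 140, 189 and 176 TPM in CAC and 142, 138, 112, 116 and 97.7 TPM in Con. The groups overlapped in both, with differences of 0.24 (SE 0.33) and 0.30 (SE 0.37). At 8 weeks they differed by 0.93 and 1.497 and passed. Foxo4, a FoxO transcription factor, had the smallest p of the list, with a difference of 0.22 and an SE of 0.09. Cblb, Fbxo30 and Foxo3 differed by 0.30, 0.19 and 0.18. Of 23 autophagy genes 0 passed and 0 had an unadjusted p under 0.05, and the median was 0.12.

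Genes that glucocorticoids and zinc induce varied within both groups. Of 22 glucocorticoid targets tested, 0 passed, with a median of 0.13. At an unadjusted p under 0.05 there was 1 higher (Angptl4) and 0 lower, beside 3.02% and 0.2% of all genes. Fkbp5, a chaperone of the glucocorticoid receptor and one of its targets, was at 17.6, 28.2, 22.4, 19.7 and 12.4 TPM in CAC and 19.99, 6.48, 7.77, 13.9 and 19.2 TPM in Con, which overlapped widely. Its difference was 0.62 with an SE of 0.51. Cebpd and Nfkbia, a transcription factor and an NF-kB inhibitor, differed by 0.52 and 0.20, also with overlap. Of 8 metallothioneins and zinc transporters tested, 0 passed and 0 had an unadjusted p under 0.05, with a median of 0.09. Mt1 was at 52.8 to 87.0 TPM in CAC and 37.3 to 50.4 TPM in Con, without overlap and with a difference of 0.56 and an SE of 0.52. Mt2 was at 18.8, 17.5, 44.5, 18.1 and 11.3 TPM in CAC and 11.8, 9.86, 10.7, 12.3 and 17.8 TPM in Con, with overlap. Slc39a14 and Slc30a1, which move zinc into and out of the cytosol, differed by 0.35 and 0.14.

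Fibre types and other cell types showed no called difference. Of 15 slow-fibre genes 0 passed, with a median of 0.09, and Myh7 differed by 0.12 with an SE of 0.30. Of 16 fast-fibre genes 0 passed, with a median of -0.01. Myh4 was at 26.8, 26.6, 13.3, 1013 and 28.6 TPM in CAC and 12.5, 14.9, 32.9, 23.4 and 21.1 TPM in Con, and its difference of 1.28 was 0.18 without the 3 libraries low in tendon genes, which include CAC replicate 4. Adipocyte genes, 14 tested, had a median of 0.39, or 0.98 without those 3 libraries, and 0 passed. Adipoq, the fat-cell hormone adiponectin, was at 51.4, 16.01, 57.1, 14.3 and 75.3 TPM in CAC and 12.4, 26.6, 44.6, 48.8 and 16.6 TPM in Con. CAC replicates 2 and 4, low in tendon genes, were the lowest of CAC. Con replicate 4, also low in tendon genes, was the highest of Con. Macrophage genes, 15 tested, had a median of 0.11 and 0 passed. C1qa, a complement subunit made by macrophages, was at 16.7 to 33.8 TPM in CAC and 11.5 to 27.5 TPM in Con. The 19 other lists had medians between -0.10 (erythroid) and 0.17 (insulin and IGF signalling). In each at most 2 members were higher and 1 lower at an unadjusted p under 0.05, beside 3.02% and 0.2% of all genes.

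**Figure D4:**
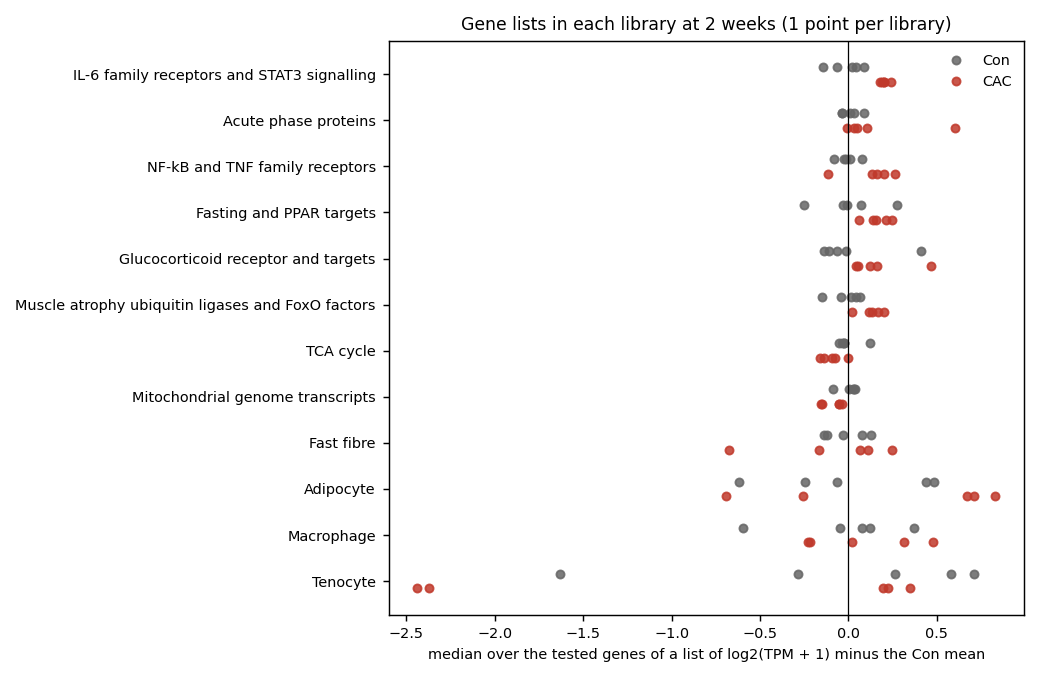
Median over the tested genes of 12 lists, as log2(TPM + 1) minus the Con mean of each gene (horizontal axis), with 1 point per library for Con (grey, upper row) and CAC (red, lower row). The 5 CAC points of the interleukin-6 and STAT3 list, 0.18 to 0.24, lie to the right of all Con points, while the tenocyte list splits within both groups, down to -2.44.

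Genes called at 4 weeks were followed back to 2 weeks. The groups compared at 4 weeks hold other libraries, but all weeks share the estimate of each gene's spread. The unadjusted p at 2 weeks is therefore not fully independent of the choice. At 4 weeks CAC and Con differed in 79 genes higher (0.584%) and 5 lower (0.037%). At 2 weeks 78 of the 79 lay above 0, and the median was 0.35, against 0.06 over all genes. After rescaling, 78 of the 79 still lay above 0, with a median of 0.29. In 22 of the 79 (27.8%) the 2-week groups did not overlap, beside 2% of all genes, and 43 (54.4%) had an unadjusted p under 0.05, beside 3.02%. The exception was Btg2, an antiproliferative gene, with -0.18 at 2 weeks and 1.03 at 4 weeks. In all 79 the 2-week difference was smaller than that at 4 weeks, where they were chosen and where the median was 0.89. The 5 genes lower at 4 weeks all lay below 0 at 2 weeks, with a median of -0.06.

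Among the 22 were Stat3, Osmr, Sbno2, Bcl3, Jak3, Hp, C4b, Lrg1, Serpina3n and Tnfrsf1a, described above. Others, named after their values were seen, extended to cytokine receptors and signalling. Csf2rb2, a beta subunit of the interleukin-3 receptor, was at 3.17, 2.51, 4.42, 3.38 and 2.91 TPM in CAC and 1.72, 2.31, 1.01, 1.64 and 1.51 TPM in Con. Its near-identical neighbour Csf2rb, the shared beta subunit, differed by 0.72 and overlapped, and reads could be split between both. Map3k8, a kinase of the TNF and toll-like receptor pathways, was at 2.27 to 3.60 TPM in CAC and 0.996 to 2.12 TPM in Con. Col23a1, a transmembrane collagen, was at 9.38 to 11.99 TPM in CAC and 5.05 to 7.02 TPM in Con, a difference of 0.67 with an SE of 0.23. Mcu, the pore of the mitochondrial calcium uniporter, was at 20.6 to 26.6 TPM against 17.3 to 19.9 TPM, and Ackr1, a chemokine-binding protein of venules, at 7.59 to 10.7 TPM against 4.65 to 7.29 TPM. Clu, a secreted chaperone, and Ccl8, a monocyte chemokine, overlapped at 2 weeks, with differences of 0.53 and 0.92 that reached 1.02 and 2.82 at 4 weeks.

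Whether the CAC effect itself differed between 2 and 4 weeks was tested gene by gene. In limma 0 genes passed in either direction (0%), 97 were higher at an unadjusted p under 0.05 (0.717%) and 134 lower (0.99%). For Socs3 the difference was 0.98 at 2 weeks and 2.73 at 4 weeks, and for Hp 1.77 and 3.46, both with an adjusted p of 1 for the change. By 6 weeks 2941 genes were higher (21.7%) and 328 lower (2.42%). Of the 2941, 93.5% lay above 0 at 2 weeks with a median of 0.12, but that share depended on the scale: 2175 did after rescaling. Of the 328, 64.9% lay below 0 at 2 weeks, with a median of -0.04, and after rescaling 58 lay above 0 and the median was -0.12.

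**Figure D5:**
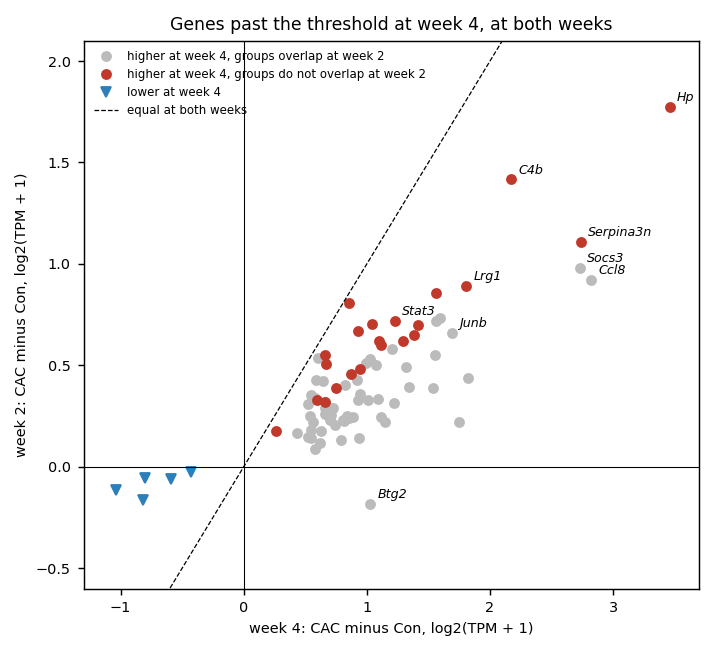
Difference of CAC from Con on the log2(TPM + 1) scale at 2 weeks (vertical axis) against 4 weeks (horizontal axis) for the 84 genes that passed at 4 weeks. Each point is a gene, red where the 2-week groups did not overlap, and the dashed line marks equal differences. All 79 genes higher at 4 weeks lie below the line, and Btg2 is the one of them under 0 at 2 weeks.

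The non-cachectic melanoma gave another reference at 2 weeks. CAC and NCAC were each set against the same Con libraries, so their values are given side by side only. NCAC differed from Con in 1 gene higher (0.00739%) and 0 lower in limma, with 284 and 263 at an unadjusted p under 0.05 (2.1% and 1.94%), and groups without overlap in 152 genes higher (1.12%) and 146 lower (1.08%). Stat3 differed from Con by 0.72 in CAC and 0.06 in NCAC, Osmr by 0.60 and 0.12, Bcl3 by 0.62 and -0.06, Sbno2 by 0.62 and -0.20, and Socs3 by 0.98 and -0.35. For acute phase genes the values were 1.77 and 0.86 for Hp, 1.42 and 0.91 for C4b, and 1.11 and 0.78 for Serpina3n. Some ranked genes moved the same way in both tumour groups. Pfkfb4 averaged 15.2 TPM in CAC, 12.6 in NCAC and 8.82 in Con, and Shisa5 19.5, 17.4 and 13.0 TPM. Cep63 averaged 8.38, 7.86 and 11.9 TPM, and Fam212a 4.15, 3.55 and 5.79 TPM. Others did not: Atp9a averaged 47.7, 28.4 and 28.2 TPM, and Pfkfb1 7.03, 12.1 and 9.83 TPM. The 79 genes higher at 4 weeks had a median of 0.35 in CAC and 0.09 in NCAC.

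Tested directly, CAC lay above NCAC in 7 genes (0.0517%) and below it in 0 (0%) in limma. At an unadjusted p under 0.05 there were 1071 higher (7.92%) and 218 lower (1.61%). These counts are on TPM without rescaling, and rescaled counts are not given here. The mitochondrially encoded share of all TPM was 35.6 ± 1.40% in CAC and 40.2 ± 2.55% in NCAC (SD, n = 5). Its part in the excess of higher genes was not tested. Among the 7 were Stat3, with a difference of 0.66 (SE 0.13, limma adjusted p = 0.0292), Sbno2, with 0.82 (limma adjusted p = 0.0332), and Rasa4, with 0.53 (limma adjusted p = 0.0368). Stat3 was at 20.8, 20.7, 20.4, 21.6 and 18.3 TPM in NCAC, each library below the lowest CAC library. Hp, between 3.32 and 33.4 TPM in NCAC, and C4b, between 4.45 and 16.3 TPM, overlapped with CAC, with differences of 0.91 and 0.51. Glucocorticoid targets had a median difference from Con of 0.13 in CAC and 0.53 in NCAC, and Fkbp5 reached 47.8 TPM in 1 NCAC library.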

How the data were processed

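Per the labels' protocols, soleus RNA was prepared with a stranded mRNA kit. The authors deposited 1 table of TPM values per gene for 62 libraries. Reads had been placed on mm10, as the submitters' processing notes say; which aligner and quantifier were run is not given in the sources used here. Since TPM keeps no read depth, no counting error could be computed. Precision rests on the spread between libraries within groups, pooled in limma over all 62 libraries. Genes at 1 TPM or more in at least 5 of the 62 libraries were kept (13529 of 47643). Values were taken as log2(TPM + 1) and fitted in limma 3.58.1 (R 4.3.3) with a mean for each of 12 groups, so that all groups share the estimate of spread. P-values were adjusted over all tested genes by the Benjamini-Hochberg method, with a threshold of 0.05. The test was tried on simulated data with 200 changed genes among 13529. It recovered 92% of those changed by 1 on the log2 scale and 46% of those changed by 0.5, with 6 false calls. The simulated noise was drawn gene by gene, without effects shared by a whole library. In the real libraries tendon genes fell together, so these shares need not hold there. Single values were compared by exact permutation in Python 3.11.15, and figures drawn with matplotlib 3.10.9.

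The text names the genes past the threshold, the 15 higher and 15 lower genes with the smallest unadjusted p and a group mean of at least 5 TPM, up to 4 members with the smallest p from each list discussed, and a fixed panel of 15 genes. Predicted genes are counted and not named. Genes named outside this rule were chosen after their values were seen, among them Jak2, Il6st, Csf2rb, Clu, Ccl8 and Btg2. The genes, lists and comparisons were chosen with earlier results of these data known. Gene positions come from the deposited identifiers and mm10 annotation, promoters from RefSeq (GRCm38.p6). Alternatives changed the filter, the pseudocount, the scaling, the libraries in the fit, a replicate block and quality weights, and left out single libraries.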

Additional observations from a re-analysis of the deposited data

Results flagged for a closer look

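In groups of 5 libraries a value was singled out where its gap to the nearest other exceeded 0.71 of the group's range. Of 204 groups tested 19 were singled out (9.31%). Chance gives about 1 in 20 for normally distributed, independent values. TPM of related genes, many named for their values here, need not be such, so no excess is read from this share. CAC replicate 3 held 5 of them, each the highest of its group: Hp at 161 TPM, C4b at 34.2 TPM, Serpina3n at 33.4 TPM, Lrg1 at 48.1 TPM and Mt2 at 44.5 TPM. CAC replicate 4 also held 5, each the highest: Myh4 at 1013 TPM, Socs3 at 27.6 TPM, Junb at 45.8 TPM, Cblb at 10.2 TPM and Atrip at 5.69 TPM.

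In Con, replicate 5 was lowest for Sord at 49.0 TPM and Map3k8 at 0.996 TPM, and highest for Pfkfb1 at 13.3 TPM and Oxct1 at 472 TPM. Con replicate 1 was lowest for Jak3 at 4.91 TPM and Osmr at 1.83 TPM. Con replicate 4 was highest for Mb at 15472 TPM and Nfkbib at 27.5 TPM, and Con replicate 2 was highest for Foxo4 at 104 TPM.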

How the results depend on the processing

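All 102 genes named and tested kept their direction in 19 alternatives, and 18 passed in at least 1 of them, 17 of these with sample quality weights. Many of the 102 were named for their values in these same libraries, which the alternatives reuse. A reversal was therefore unlikely from the start. The count of genes higher was 1. It became 3 with no filter on low values, 17 with quality weights, and 0 with the compared libraries alone, with week 2 alone, without week 8, with the replicate block and without the 3 libraries low in tendon genes; leaving out 1 library gave 0 to 2. In those fits with 0 the genes higher at an unadjusted p under 0.05 numbered 1104, 1163, 765, 771 and 152. The count lower was 0, or 1 with quality weights, and 0 to 0 when 1 library was left out. For Stat3 the limma adjusted p ran from 5.9e-05 with quality weights to 0.768 without the 3 libraries, with log2 differences of 0.61 to 0.79. The block by replicate number gave Stat3 an adjusted p of 0.618. The numbers do not pair the libraries: same-numbered CAC and Con libraries correlated at -0.20 to 0.19, and 1 of 5 correlated best with its own number. For the change from 2 to 4 weeks the count higher was 1 without the 3 libraries and 0 to 1, with 0 lower, when 1 library was left out. The 2-week median of the genes higher at 4 weeks was 0.28 to 0.59 and their share above 0 was 96.1% to 100% when 1 library was left out, over 26 to 185 genes. Genes without overlap, 271 higher and 19 lower, were 62 and 79 after rescaling and 1347 and 131 without the 3 libraries, where fewer libraries separate more easily, and 315 to 617 and 23 to 45 when 1 library was left out; these alternatives were chosen after seeing the data. Medians of 24 lists stayed within 1 SD in every alternative and 13 did not in at least 1. Other causes of these shifts were not tested. Depth is unknown.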
